A study of Homo sapiens with 32 samples.

Results

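N-R2 and highIM-R1 are drug-resistant lines of K-562, an established human cell line from chronic myeloid leukaemia that carries the BCR-ABL1 fusion kinase. N-R2 is the second line selected for resistance to nilotinib, at a final 0.1 µM, and highIM-R1 is the first line selected for resistance to imatinib, at a final 2 µM. Both drugs inhibit BCR-ABL1. The comparison used the 4 arrays carrying the source name N-R2 and the 4 carrying highIM-R1, 8 of the 32 arrays of the series. The remaining arrays came from the other nilotinib line (N-R1, 0.1 µM), the other high-dose imatinib line (highIM-R2, 2 µM), a pair of low-dose lines (lowIM-R1 and lowIM-R2, 0.5 µM) and treatment-naive K-562 cells in sets named S and K, which the labels do not explain. Drug concentrations had been raised in steps, and the labels do not say whether drug was present when RNA was taken from the resistant lines. The arrays measured 100 ng of total RNA each. The design text counts 2 biological replicates for each kind of resistance and 4 technical replicates, so each line is 1 selected culture measured on 4 arrays. Drug, dose and line therefore cannot be told apart in this pair, errors below cover technical spread only, and no p-value is given for a gene.

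The pair was chosen from these same values. N-R2 and highIM-R1 have the smallest root mean square distance between set means, 0.403 on the log2 scale over 14884 genes, among the 8 pairs that join a nilotinib line with an imatinib line. N-R2 lay nearly as close to the other imatinib lines, at 0.412 from lowIM-R2, 0.434 from lowIM-R1 and 0.438 from highIM-R2. The distance of N-R2 to the other nilotinib line, N-R1, was 0.477, and that of highIM-R1 to the other high-dose line, highIM-R2, was 0.534. These distances chose the pair and describe it without testing anything.

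BCR-ABL1 signals through STAT5, the RAS and MAPK cascade and PI3K, which together hold up survival and growth of chronic myeloid leukaemia cells. K-562 cells resemble early red-cell precursors and also hold megakaryocytic and myeloid programmes that can be raised or lowered. Cells selected under a BCR-ABL1 inhibitor can carry changes in the kinase itself, in other kinases or in their differentiation state, and independently selected cultures need not carry the same ones.

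Values are log2 array intensities, with 1 unit taken as a 2-fold difference. Set medians were close, array medians running between 5.85 and 6.11, and arrays of 1 set correlated at 0.952 to 0.991. Of the 13 K-562 identity genes listed, 6 were measured under a single symbol. Of these, 1 was separated by the rule given below (16.7%, against 1.7% of all genes higher), KLF1, higher in N-R2 by 1.26. LMO2 was higher by 0.84 and TAL1 differed by -0.44, both short of the rule. GATA1, the erythroid master factor, stood at 9.71 in N-R2, 9.41 in highIM-R1 and 9.37 in naive cells, and PRAME, a tumour antigen abundant in K-562, at 10.92, 10.65 and 10.45 in the same order. BCR, whose front part lies in the fusion, measured 7.75, 7.74, 7.71 and 7.48 in N-R2 and 7.62, 7.78, 7.97 and 7.90 in highIM-R1, a difference of -0.15 ± 0.10 (technical SE), and the arrays overlapped. The main direction of variation among arrays of the same set, an axis holding 16.8% of the within-set variance, also differed between the lines. Mean scores were 12.3 in N-R2 (-4.66 to 30.6), -2.13 in highIM-R1 (-6.45 to 4.91), -20.8 in naive S and -25.1 in naive K. Counts of genes separating the pair over all genes and by chromosome, and some list medians, are given below also with this axis taken out. Other counts, among them those of each line directly against naive cells and against all other sets, are given only with the axis left in. The part of the axis in any of these was not tested.

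A gene was called separated when the line means differed at least 2-fold and no array of one line reached an array of the other. By this rule 253 of 14884 genes (1.7%) were higher in N-R2 and 162 (1.09%) were lower, 415 in all (2.79%). With the within-set axis taken out the counts were 178 higher and 207 lower, so higher genes made up 46.2% of the calls in place of 61.0%. Most genes lay close together: 89.2% differed by less than 1.5-fold. The median difference was 1.23 among the higher genes and -1.25 among the lower, and 36 higher and 14 lower genes differed at least 4-fold. Because the pair was chosen on these values, the counts describe its size only. For comparison by the same rule, 283 genes were higher and 279 lower in N-R2 against N-R1, 833 separated highIM-R1 from highIM-R2, and 39 separated naive S from naive K. Against technical spread alone, limma placed 4249 genes (28.5%) under an adjusted p of 0.05, which counts repeat arrays and not cultures.

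**Figure D1:**
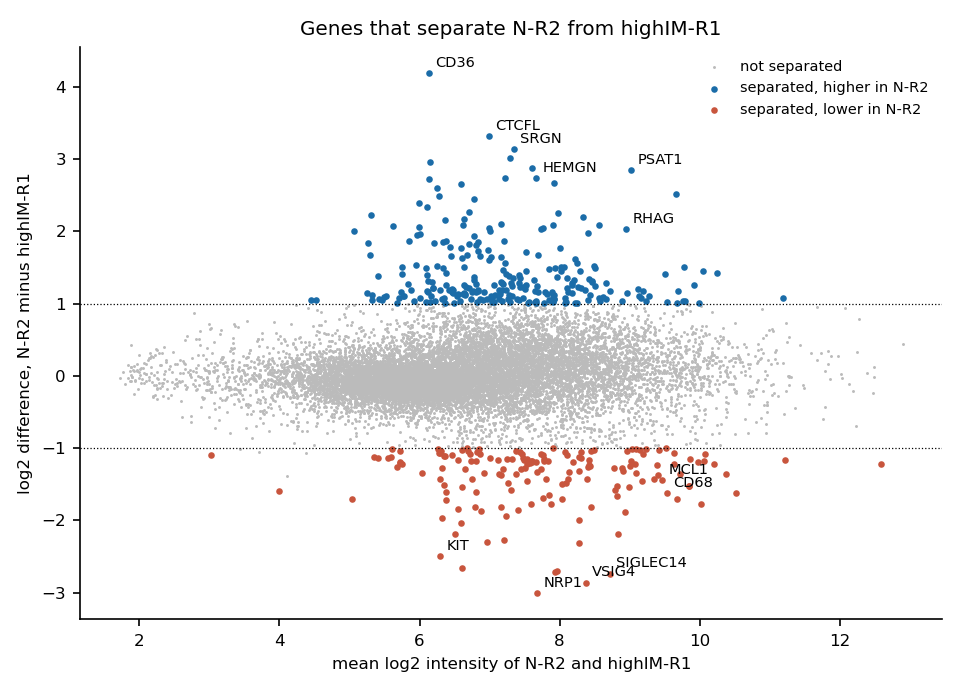
Log2 difference (N-R2 minus highIM-R1) against mean log2 intensity of both lines for 14884 genes, 1 point each; dotted lines mark 2-fold. The 253 higher and 162 lower separated genes span most intensities, with CD36 at the top and NRP1 at the bottom.

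The rule's edge lies among genes of ordinary size. Just inside it were MCM3, a DNA replication helicase subunit (10.49 in N-R2 and 9.49 in highIM-R1), and PUS7L (8.58 and 7.58) on the higher side, and on the lower side INSR, the insulin receptor (6.17 in N-R2 and 7.17 in highIM-R1), and CLIC4 (9.01 and 10.02). Just outside were BCAM, a blood group glycoprotein (7.24 in N-R2 and 6.24 in highIM-R1), and TF, transferrin (6.92 and 5.92), and on the lower side EHD2 (9.70 in N-R2 and 10.69 in highIM-R1) and the AP-1 factor FOSL2 (6.30 and 7.29). Some of the separated genes were dim in one line or both. In 43 of the 162 lower genes N-R2 lay below 6.16, the level under which 40% of all genes fall, in 105 of the 253 higher genes highIM-R1 did, and in 20 separated genes both lines did. Such levels were not shown to be above background. Besides genes where this is said below, this limit applies to SRGN, ADGRG6, EPCAM, PM20D2, LINC01203, MET, KIT and CCL2, among others. In FLI1 and SAGE1 both lines lay below 6.16. Only 18 separated genes had further array features: of these 32 features, 25 had the same sign and 8 of those also reached 2-fold.

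The largest measured difference was at CD36, a scavenger receptor for fatty acids and lipoproteins found on monocytes, platelets and early red-cell precursors. CD36 measured 8.01, 8.38, 8.62 and 7.93 in N-R2 and 4.19, 4.03, 3.88 and 4.07 in highIM-R1 (4.19 ± 0.14). Every N-R2 array lay far above every highIM-R1 array, and the naive arrays, from 3.99 to 4.83, lay beside highIM-R1. The other resistant lines averaged between 4.02 and 4.98, so that N-R2 alone of the 8 sets had a high level. The highIM-R1 and naive levels lie among the dimmest 40% of genes and were not shown to be above background, so no exact fold is given. In bulk RNA, a gene expressed in more of the cells and a gene expressed more strongly per cell cannot be told apart.

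SRGN encodes serglycin, the proteoglycan that packs proteases and histamine into the granules of blood cells. SRGN measured 9.06, 8.74, 9.29 and 8.58 in N-R2 and 5.72, 5.73, 6.03 and 5.63 in highIM-R1 (3.14 ± 0.13). The naive sets averaged 7.58 and 7.69, between the lines, while the 4 other resistant lines stood at 5.64 to 5.70, beside highIM-R1. SRGN was thus above naive cells in N-R2 alone and below them in the other 5 resistant lines. EPCAM, an epithelial adhesion protein also present on red-cell progenitors, measured 8.47, 8.58, 8.70 and 8.62 in N-R2 and 5.73, 5.56, 5.88 and 6.26 in highIM-R1 (2.74 ± 0.13). The arrays did not overlap and naive cells, at 8.40 and 8.56, stood with N-R2. ADGRG6, an adhesion G-protein-coupled receptor known from Schwann cell myelination, measured 8.79, 8.90, 8.89 and 8.62 in N-R2 and 5.74, 5.75, 5.82 and 5.82 in highIM-R1 (3.02 ± 0.11), and highIM-R1 had the lowest level of the 8 sets by more than 2-fold.

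PSAT1, an enzyme of serine synthesis, was among the brightest genes with a large difference. It measured 10.36, 10.45, 10.61 and 10.34 in N-R2 and 7.78, 7.43, 7.52 and 7.65 in highIM-R1 (2.85 ± 0.13). N-R2 stood at the naive level of 10.68 and 10.18, and highIM-R1 lay below both. PHGDH and PSPH, the enzymes before and after PSAT1 in the same pathway, were not separated, at -0.24 ± 0.09 and -0.25 ± 0.10. PM20D2, a dipeptidase, measured 7.51, 7.32, 7.85 and 7.30 in N-R2 and 5.01, 4.82, 4.63 and 4.62 in highIM-R1 (2.73 ± 0.14), with naive cells at 5.52 and 5.29 nearer highIM-R1.

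Several of the large differences were in nuclear proteins. CTCFL (BORIS), the germ-line paralogue of the chromatin insulator CTCF, measured 8.84, 8.65, 8.65 and 8.47 in N-R2 and 5.33, 5.80, 4.90 and 5.30 in highIM-R1 (3.32 ± 0.13). N-R2 kept the naive level of 8.45 and 8.82. The low-dose lines lowIM-R1 and lowIM-R2 were also below naive cells, at 6.10 and 6.49. N-R1 and highIM-R2 stood at 7.80 and 8.31. The highIM-R1 level lies below 6.16, among the dimmest 40% of genes, so no exact fold is given. HEMGN (hemogen), a nuclear protein of blood-forming cells, ran from 8.90 to 9.13 over the 4 arrays of N-R2 and from 6.20 to 6.37 over those of highIM-R1 (2.74 ± 0.10). All 4 other resistant lines lay near N-R2, from 8.89 to 9.61, and naive S and K were lower, at 6.69 and 7.44. The zinc finger genes ZNF117 and ZNF681 differed by 2.67 ± 0.16 and 2.65 ± 0.19.

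Non-coding transcripts were also among the largest. LINC01203 on the X chromosome measured 7.03, 7.93, 8.13 and 7.42 in N-R2 and 4.63, 4.73, 4.65 and 4.66 in highIM-R1 (2.96 ± 0.18), and GS1-600G8.3, also on X, averaged 7.72 in N-R2 and 5.54 in highIM-R1 (2.17 ± 0.14). In both, naive cells and all other lines lay with highIM-R1. The pseudogene TSSC2 differed by 2.88 ± 0.15. UCA1, a long non-coding RNA first described in urothelial cancer, measured 10.82, 10.98, 10.96 and 10.96 in N-R2 and 8.45, 8.27, 8.41 and 8.51 in highIM-R1 (2.52 ± 0.09), with naive cells at 11.16 and 11.08; a further UCA1 feature differed by 0.85.

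Surface receptors led the genes that were lower in N-R2. NRP1 (neuropilin 1), a co-receptor for VEGF and semaphorins, measured 6.35, 6.12, 6.12 and 6.12 in N-R2 and 9.30, 9.24, 9.09 and 9.10 in highIM-R1 (-3.01 ± 0.11), with the N-R2 level just above the dimmest 40% of genes. The naive arrays, 5.81 to 6.26, and every other line lay near N-R2, and highIM-R1 stood alone. VSIG4, a complement receptor of tissue macrophages, measured 6.83, 6.93, 7.24 and 6.77 in N-R2 and 9.66, 9.81, 9.95 and 9.79 in highIM-R1 (-2.86 ± 0.10). N-R2 was itself above the naive sets, which averaged 6.14 and 6.29.

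The same order held for SIGLEC14, a sialic-acid-binding receptor of myeloid cells, with 7.34, 7.39, 7.47 and 7.19 in N-R2 and 10.16, 10.03, 10.24 and 9.92 in highIM-R1 (-2.74 ± 0.12). Naive cells were lower than both lines, at 6.68 and 6.56. SIGLEC14 and SIGLEC5 share near-identical stretches, and how far the array's probes tell them apart was not tested; SIGLEC5 differed by -1.58 ± 0.13. SIGLEC6, found on mast cells and placenta, measured 6.92, 6.45, 6.43 and 6.53 in N-R2 and 9.38, 9.22, 9.33 and 9.26 in highIM-R1 (-2.72 ± 0.13), with naive cells between the lines.

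KIT, the stem cell factor receptor and itself a target of both drugs, measured 4.67, 4.88, 5.22 and 5.42 in N-R2 and 7.49, 7.61, 7.39 and 7.67 in highIM-R1 (-2.49 ± 0.17). Naive cells were above both, at 8.44 and 8.87, so N-R2 lay 3.61 and highIM-R1 1.11 below them. KIT stood at 5.38 to 5.60 in the low-dose lines and highIM-R2, beside N-R2, and at 9.24 in N-R1. IL20RB, a chain of the receptors for interleukins of the IL-20 group, differed by -2.28 ± 0.15, with naive cells between the lines.

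CCL2, a chemokine that draws monocytes, measured 5.30, 5.21, 5.45 and 5.13 in N-R2 and 7.96, 7.84, 7.84 and 8.07 in highIM-R1 (-2.65 ± 0.17). N-R2 lay close to naive cells, at 5.13 and 4.70. LPCAT2, an enzyme that makes platelet-activating factor and membrane lipids, measured 7.74, 7.76, 7.93 and 7.53 in N-R2 and 10.16, 9.85, 9.81 and 9.87 in highIM-R1 (-2.18 ± 0.14), with naive cells at 8.23 and 8.22. TGM5, a transglutaminase of skin, differed by -2.19 ± 0.16, VWA5A by -2.70 ± 0.10, TDRD3, a reader of methylated arginine, by -2.31 ± 0.10 and CRYBG1 by -2.30 ± 0.13. In TGM5, VWA5A and TDRD3 naive cells matched N-R2 within 1.5-fold and highIM-R1 was the highest of the 8 sets.

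**Figure D2:**
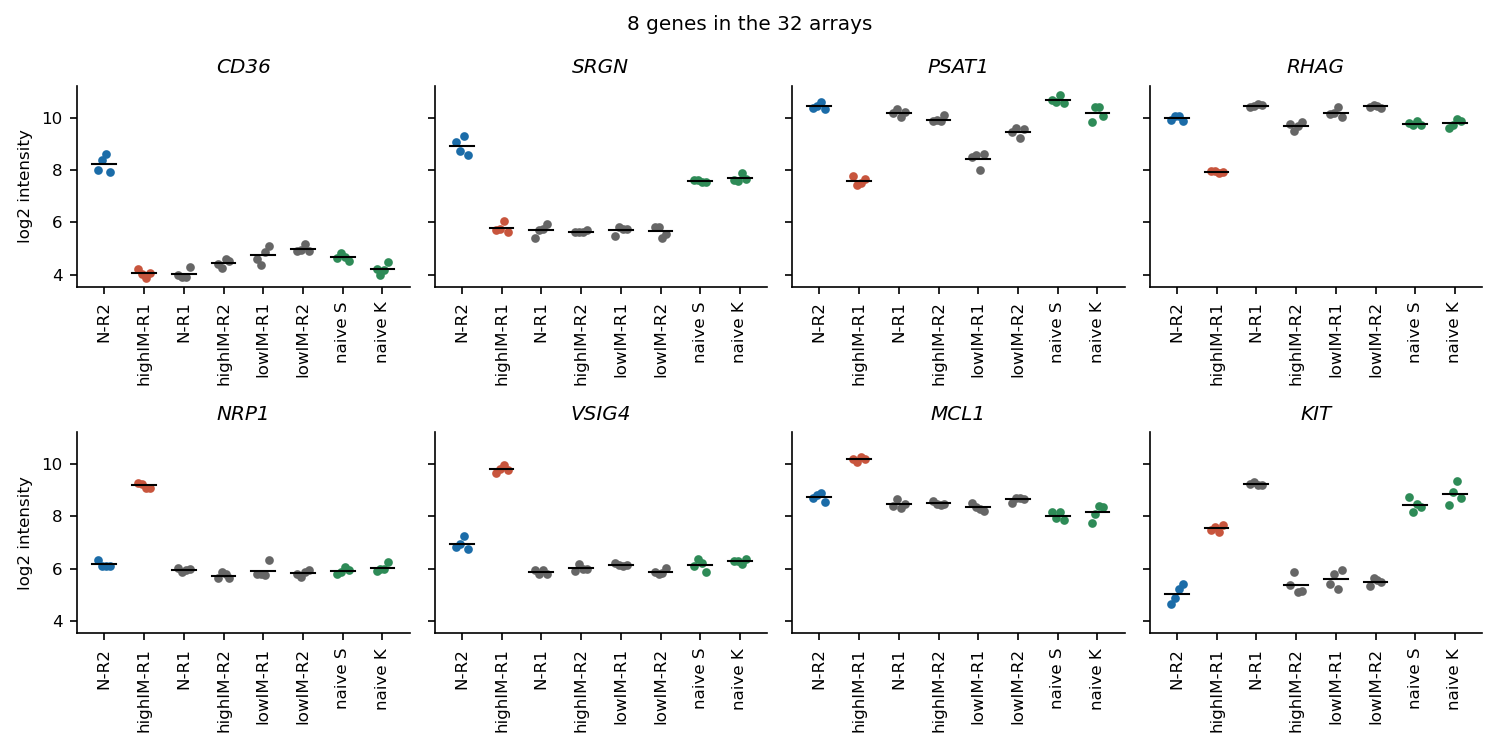
Log2 intensity of 8 genes on all 32 arrays, 4 points per set with the set mean as a bar; N-R2 is blue, highIM-R1 red, other resistant lines grey and naive sets green. CD36 and SRGN are highest in N-R2, NRP1, VSIG4 and MCL1 highest in highIM-R1, PSAT1 and RHAG lowest in highIM-R1, and KIT is low in N-R2 and 3 other lines.

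The naive arrays did not enter the choice of the pair and show which line stands away from the parental level. Naive was taken as the mean of sets S and K, and near as within 1.5-fold. Of the 253 higher genes, naive cells were near N-R2 alone for 78 (30.8%), near highIM-R1 alone for 113 (44.7%) and between the lines for 38. Of the 162 lower genes, naive cells were near N-R2 alone for 97 (59.9%) and near highIM-R1 alone for 20 (12.3%). Over both directions these were 175 genes near N-R2 alone and 133 near highIM-R1 alone, and with the within-set axis taken out 205 and 97. In 28 lower genes, VSIG4, SIGLEC14 and MCL1 among them, naive cells lay beyond N-R2, so both lines stood on the same side of naive and highIM-R1 further out. In 6 higher genes naive cells also lay beyond N-R2. Examples are BAIAP2L1, an actin-bundling adaptor, at 8.01 in N-R2, 6.01 in highIM-R1 and 8.72 in naive cells, SAGE1 at 6.10, 4.72 and 7.61, and HSPA4L at 7.26, 5.42 and 8.30.

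Set against naive cells directly, with at least 2-fold and no overlap with the 8 naive arrays, N-R2 had 456 higher genes (3.06% of all) and 88 lower (0.591%), and highIM-R1 had 465 higher (3.12%) and 130 lower (0.873%). Both counts share the naive arrays. Among the 162 genes lower in N-R2, N-R2 was below naive by this rule in 20 (12.3%) and highIM-R1 above naive in 103 (63.6%). Among the 253 genes higher in N-R2, N-R2 was above naive in 80 (31.6%) and highIM-R1 below naive in 69 (27.3%). The median distance from naive was 0.75 in N-R2 and -0.56 in highIM-R1 over the higher genes, and -0.05 in N-R2 and 1.19 in highIM-R1 over the lower genes. These genes were chosen for a gap of at least 2-fold between the lines. In each of them at least 1 line therefore lies some way from naive by construction, while which line does is not fixed. Both lines can still be within 1.5-fold of naive, as in 7 of the higher genes. A level at least 2-fold above the 7 other sets was found in N-R2 for 20 of the higher genes (7.91%) and in highIM-R1 for 63 of the lower genes (38.9%). A level at least 2-fold below the 7 other sets was found in highIM-R1 for 17 of the higher genes (6.72%) and in N-R2 for 0 of the lower genes. Such genes differ at least 2-fold between the 2 lines by construction, so these are also the counts over all 14884 genes. The same was not counted for the other sets. These last counts were chosen after the values were seen.

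**Figure D3:**
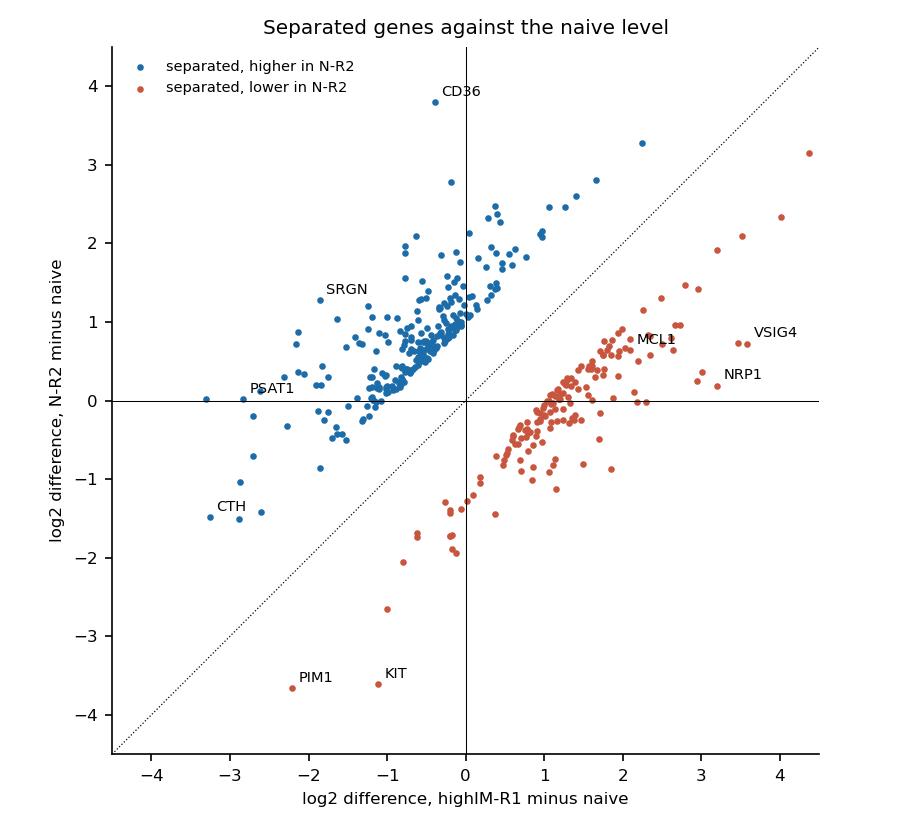
Log2 difference from naive cells in N-R2 (vertical) and highIM-R1 (horizontal) for the 415 separated genes, with the line of equal values dotted; both axes share the 8 naive arrays. The lower genes spread to the right, where highIM-R1 is above naive cells and N-R2 near them, and the higher genes lie both above and to the left.

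All 28 lists were measured only in part, and over measured members the erythroid list had the highest median difference. Of the 46 erythroid genes listed only 18 were measured, with no globin or glycophorin gene among them. Of 18 measured, 3 were separated, all higher (16.7%, against 1.7% of all genes), and the median difference was 0.66, against -0.02 over all genes; with the within-set axis taken out it was 0.51. RHAG, the Rh-associated glycoprotein of the red-cell membrane, measured 9.90, 10.07, 10.05 and 9.86 in N-R2 and 7.96, 7.96, 7.89 and 7.94 in highIM-R1 (2.03 ± 0.09). The arrays within each line were tight and naive cells, at 9.77 and 9.78, stood with N-R2. FECH, which inserts iron into haem, averaged 9.02 in N-R2 and 7.57 in highIM-R1 (1.45 ± 0.11), and KLF1, the transcription factor that switches on adult globin and membrane genes, measured 8.86, 8.76, 8.89 and 8.70 in N-R2 and 7.44, 7.67, 7.52 and 7.53 in highIM-R1 (1.26 ± 0.14). For both FECH and KLF1 naive cells were near highIM-R1. Among those not separated, the haem enzymes UROS, CPOX and PPOX differed by 0.61 ± 0.13, 0.73 ± 0.13 and 0.74 ± 0.13, the carbonic anhydrase CA1 by 0.99 ± 0.16, GATA1 by 0.29 ± 0.09 and TAL1 by -0.44 ± 0.12. The list's median was -0.18 between N-R1 and highIM-R2.

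GATA1 acts at DNA sites holding GATA, so the promoters of the 3 separated erythroid genes are shown to let the letters be read beside the values. Each is 250 bases ending just before the annotated start, from RefSeq on GRCh38.p14, with AGATAA or TGATAA and their reverse complements TTATCT and TTATCA in capitals (both strands searched).
RHAG, chr6:49636840-49637089, minus strand: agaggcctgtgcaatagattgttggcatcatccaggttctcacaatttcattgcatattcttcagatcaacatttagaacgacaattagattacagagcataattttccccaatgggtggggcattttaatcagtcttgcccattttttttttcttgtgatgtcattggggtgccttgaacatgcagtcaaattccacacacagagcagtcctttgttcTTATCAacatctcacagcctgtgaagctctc
FECH, chr18:57586703-57586952, minus strand: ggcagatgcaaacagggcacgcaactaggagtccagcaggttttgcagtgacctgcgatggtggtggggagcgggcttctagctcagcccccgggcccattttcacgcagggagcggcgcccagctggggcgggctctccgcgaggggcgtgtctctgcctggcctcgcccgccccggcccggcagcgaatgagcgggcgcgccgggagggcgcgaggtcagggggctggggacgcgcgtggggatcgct
KLF1, chr19:12887202-12887451, minus strand: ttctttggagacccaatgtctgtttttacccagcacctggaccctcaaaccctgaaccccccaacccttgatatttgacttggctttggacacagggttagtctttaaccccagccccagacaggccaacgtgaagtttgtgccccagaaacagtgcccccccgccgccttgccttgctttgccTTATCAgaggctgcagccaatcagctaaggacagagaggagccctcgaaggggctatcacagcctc
RHAG held 1 motif, 31 bases before its start, KLF1 held 1, 66 bases before, and FECH held none. The motif was in 14.6% of the 35116 promoter windows searched, in 13.1% of those of genes higher in N-R2 and in 10.8% of those of genes lower in N-R2. A match describes the letters and not a bound site.

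Cell-cycle genes differed by smaller amounts. Of 41 measured, 2 were separated, both higher in N-R2 (4.88%, against 1.7% of all genes), and the median was 0.47, against -0.02 over all genes. MCM7, a replication helicase subunit, averaged 10.28 in N-R2 and 9.25 in highIM-R1 (1.03 ± 0.10), and MCM3, at the edge of the rule, 10.49 and 9.49. The thymidylate enzyme TYMS differed by 0.89 ± 0.11 and the proliferation marker MKI67 by 0.54 ± 0.09, both short of the rule, and the helicase subunit MCM5 by -0.44 ± 0.14. With the within-set axis taken out the median was 0.27 and 0 genes of the list were separated.

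Of 30 interferon-response genes, 5 were separated, all higher in N-R2 (16.7%, against 1.7% of all genes), while the list median was 0.04, against -0.02 over all genes. IFIH1 (MDA5), a sensor of double-stranded RNA, measured 6.47, 6.42, 6.72 and 6.22 in N-R2 and 4.85, 5.14, 5.18 and 5.02 in highIM-R1 (1.41 ± 0.12). The antiviral membrane protein IFITM3 differed by 1.39 ± 0.27, the paralogues SAMD9 and SAMD9L by 1.19 ± 0.12 and 1.19 ± 0.11, and IFIT2 by 1.12 ± 0.17. Other well-known members were not separated: ISG15 differed by -0.53 ± 0.11, IFI44 by 0.09 ± 0.15 and IRF7 by -0.01 ± 0.14.

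MAPK output and feedback genes included 4 separated of 20, all lower in N-R2 (20%, against 1.09% of all genes), with a median of -0.26 against -0.02 over all genes. DUSP10, a phosphatase of stress kinases, measured 7.66, 7.75, 7.80 and 7.52 in N-R2 and 9.08, 9.21, 9.18 and 8.98 in highIM-R1 (-1.43 ± 0.14), and naive cells lay between, at 8.32. IER3, an early-response survival gene, differed by -1.35 ± 0.11 and the RAS pathway brake SPRY4 by -1.05 ± 0.10; naive cells were near N-R2 in both. JUN differed by -1.05 ± 0.12, and its naive sets disagreed, at 6.91 in S and 8.77 in K. The direct ERK feedback phosphatase DUSP6 differed by -0.05 ± 0.15 and was dim in both lines, and EGR1 was above naive cells in both, by 1.43 in N-R2 and 2.03 in highIM-R1.

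The integrated stress response list, the ATF4 programme of amino acid and endoplasmic reticulum stress, held separated genes in both directions: 2 higher and 4 lower of 21 (9.52% and 19.0%, against 1.7% and 1.09% of all genes), with a median of -0.24. The higher ones were the biosynthetic enzymes PSAT1 (above) and CTH, which makes cysteine and averaged 7.33 in N-R2, 5.55 in highIM-R1 and 8.81 in naive cells (1.78 ± 0.14 between the lines). The lower ones were DDIT3 (CHOP), a factor of prolonged stress, at -1.28 ± 0.17, the kinase-like inhibitor TRIB3 at -1.25 ± 0.13, and the mTORC1 brakes DDIT4 and SESN2 at -1.24 ± 0.13 and -1.22 ± 0.11. DDIT4 measured 8.57, 8.52, 8.40 and 8.06 in N-R2 and 9.67, 9.56, 9.70 and 9.60 in highIM-R1, with naive cells near highIM-R1. ATF4 itself differed by -0.19 ± 0.08 and ASNS by 0.06 ± 0.09.

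Among 28 drug-target and bypass kinases, 1 was higher and 3 were lower in N-R2, or 3.57% and 10.7% against 1.7% and 1.09% of all genes. MET, the receptor for hepatocyte growth factor, averaged 7.44 in N-R2 and 5.29 in highIM-R1 (2.15 ± 0.15), with naive cells at 6.53. Besides KIT, JAK1, a cytokine receptor kinase, was lower by the rule, with 9.29 in N-R2 and 10.44 in highIM-R1 (-1.15 ± 0.10), as was INSR. The SRC-family kinase LYN differed by -0.19 ± 0.11 and AXL by 0.17 ± 0.13.

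Of 17 measured STAT5 targets, 6 stood below naive cells by the 2-fold rule in N-R2 and the same 6 in highIM-R1 (PIM1, PIM2, CISH, SOCS1, SOCS2 and CCND2). Over all genes the shares below were 0.591% in N-R2 and 0.873% in highIM-R1. In each line 1 other target stood above, SPI1 in N-R2 (by 1.08) and MCL1 in highIM-R1 (by 2.09). Over all genes the shares above were 3.06% and 3.12%. The median distance of the 17 from naive cells was -0.28 in N-R2 and -0.29 in highIM-R1, and both lines share the naive arrays in these values. PIM1, a survival kinase, measured 6.82, 6.82, 6.96 and 6.64 in N-R2 and 8.28, 8.19, 8.38 and 8.21 in highIM-R1 (-1.46 ± 0.11), but naive cells were above both, at 10.59 and 10.35. CCND2 (cyclin D2) lay 2.53 below naive cells in N-R2 and 2.51 below in highIM-R1, and differed by -0.02 ± 0.12 between them. The feedback inhibitors CISH and SOCS2 averaged 6.33 and 6.19 in N-R2, 6.71 and 6.27 in highIM-R1 and 8.23 and 7.56 in naive cells. Of the 17, 2 were separated between the lines, PIM1 and MCL1, both lower in N-R2 (11.8%, against 1.09% of all genes). MCL1, an anti-apoptotic member of the BCL2 family, measured 8.70, 8.81, 8.90 and 8.56 in N-R2 and 10.21, 10.07, 10.27 and 10.19 in highIM-R1 (-1.44 ± 0.11), against 8.03 and 8.16 in the naive sets. It was the only one of 18 BCL2-family genes separated; BCL2 averaged 5.25 in N-R2, 5.33 in highIM-R1 and 7.20 in naive cells.

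Of 16 granulocyte and monocyte markers, CD36 was higher in N-R2 and the lysosomal protein CD68 (-1.63 ± 0.10) and the tetraspanin CD53 (-1.24 ± 0.16) were lower, with a list median of -0.07 against -0.02 over all genes; that is 6.25% higher and 12.5% lower, against 1.7% and 1.09% of all genes. The granule proteins MPO, PRTN3 and CTSG were dim in both lines, MPO averaging 5.49 in N-R2 and 5.71 in highIM-R1. AZU1 lay just above the dim level, at 6.32 in N-R2 and 6.23 in highIM-R1. LYZ lay well above it, at 8.35 and 7.45 (0.91 ± 0.13), and was not separated. The signalling adaptor TYROBP was above naive cells in both, by 3.03 in N-R2 and 3.28 in highIM-R1. Of 10 mast cell and basophil markers, SIGLEC6 and KIT were lower (20%, against 1.09% of all genes), while CPA3, a mast cell protease, averaged 4.38 in N-R2 and 4.63 in highIM-R1. Of 23 lymphoid markers, STAP1, an adaptor of B-cell signalling, was lower (-1.57 ± 0.17). EPCAM was the only one of 12 epithelial and fibroblast markers separated, and of 15 megakaryocytic genes FLI1, the ETS factor of that lineage, was higher (1.10 ± 0.11). FLI1 was dim in both lines, averaging 6.08 in N-R2 and 4.97 in highIM-R1.

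The remaining lists held at most 3 separated genes each. Higher in N-R2 were ICAM1, a leukocyte adhesion ligand (1.18 ± 0.16, 1 of 21 adhesion genes), the sterol reductase DHCR7 (1.14 ± 0.12, 1 of 18 cholesterol genes), the chaperone HSPA4L (1.85 ± 0.15, 1 of 18), the secreted hormone STC1 (1.83 ± 0.12, 1 of 30) and the cancer-testis antigen SAGE1 (1.38 ± 0.17, 1 of 9). Among 29 Wnt and hedgehog genes, LGR4, a receptor for R-spondins, was higher (1.86 ± 0.12) with FZD3 (1.13 ± 0.12), and FZD6 was lower (-1.29 ± 0.11). Lower were CD24, a glycoprotein of progenitors and tumour cells (-1.65 ± 0.16, 1 of 17), and VIM, vimentin (-1.18 ± 0.08, 1 of 12), whose further features differed by -0.81 and -0.91. No gene was separated among 36 ribosomal proteins, 21 matrix genes, 5 antigen presentation genes and 5 drug transport and metabolism genes measured. Of all genes, 2.79% were separated, and at that share lists this small would hold 1 gene or none. The drug transport and metabolism list held 26 genes, and its 5 measured members were GSTM1, GSTM2, GSTP1, GSTT1 and AHR. No drug transporter was among them, so the result says nothing about transporters.

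**Figure D4:**
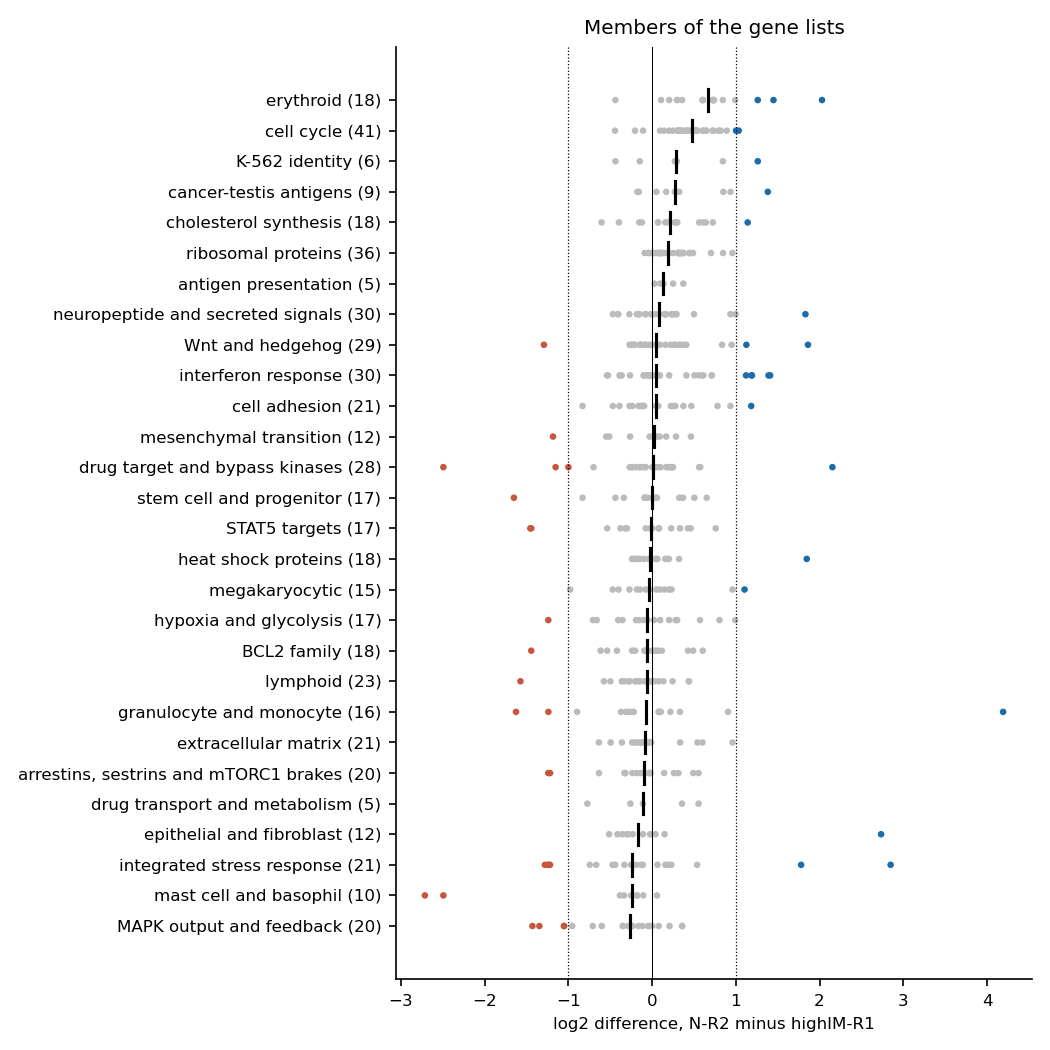
Log2 difference (N-R2 minus highIM-R1) of each measured member of 28 gene lists, with the number measured in brackets and the list median as a black bar; blue members are separated and higher in N-R2, red ones separated and lower. The erythroid list has the highest median (0.66) and the MAPK output list the lowest (-0.26).

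Of 1072 measured microRNA genes, 4 were higher in N-R2 (0.373%, against 1.7% of all genes) and 11 were lower (1.03%, against 1.09% of all genes). Of the lower ones, 4 belonged to the near-identical MIR3689 family, whose members may share signal. MIR21 and MIR590 were picked after their values were seen because their 5p products share a seed (bases 2 to 8, in capitals; sequences from RefSeq on GRCh38.p14).
hsa-miR-21-5p: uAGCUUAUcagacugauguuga
hsa-miR-590-5p: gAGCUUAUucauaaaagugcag
MIR21, a microRNA raised in many tumours, averaged 5.89 in N-R2 and 7.70 in highIM-R1 (-1.81 ± 0.15), with naive S at 8.24 and naive K at 7.41. MIR590 went the opposite way, 7.11 in N-R2 and 5.98 in highIM-R1 (1.13 ± 0.23), with naive S at 5.67 and naive K at 5.12. The array feature is assigned to the gene and does not separate precursor from mature forms.

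The other nilotinib line and the other high-dose line were compared by the same rule. They hold none of the arrays of the pair, but entered the ranking from which it was chosen. Between N-R1 and highIM-R2, 2.4% of all genes were higher in N-R1 and 1.24% lower. Of the 253 genes higher in N-R2, 20 (7.91%) were also higher in N-R1 and 29 (11.5%) were lower. Of the 162 genes lower in N-R2, 4 (2.47%) were also lower in N-R1 and 30 (18.5%) were higher. Opposite calls therefore numbered 59 and same-direction calls 24. KIT averaged 9.24 in N-R1 and 5.38 in highIM-R2, CCL2 8.72 and 5.01, LPCAT2 9.47 and 5.11, and CD24 10.53 and 5.95, each reversing the order seen in N-R2 and highIM-R1. EPCAM and UCA1 reversed in the other sense. ZNF117 and ICAM1 kept the direction, with differences of 1.12 and 3.06 between N-R1 and highIM-R2.

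**Figure D5:**
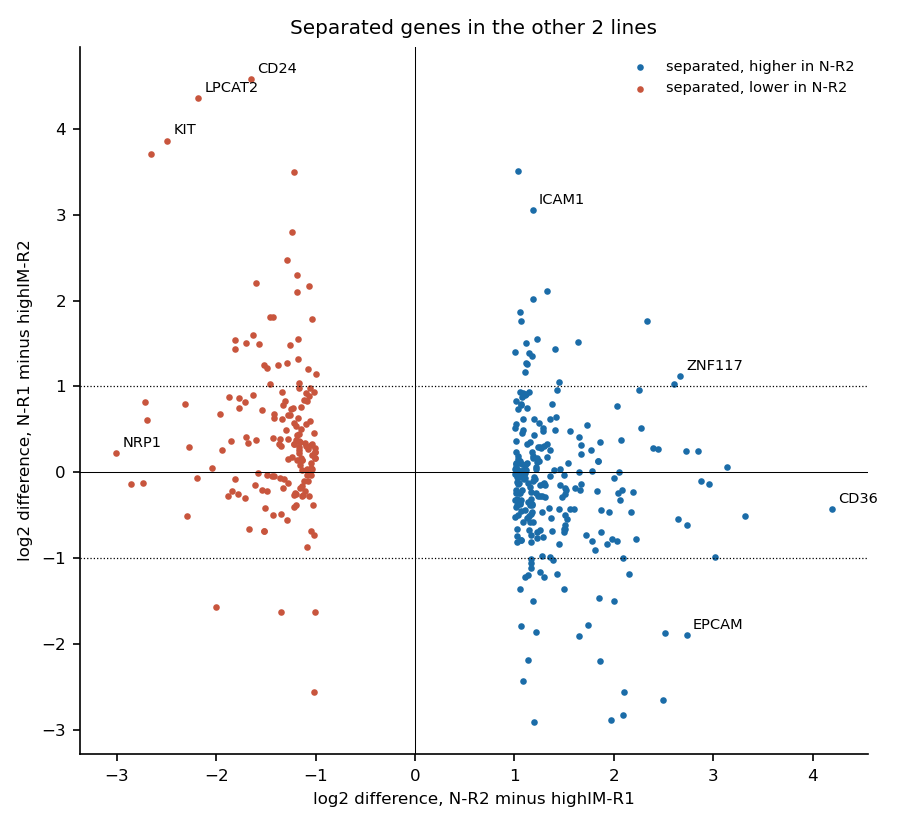
Log2 difference between the other 2 lines (N-R1 minus highIM-R2, vertical) against that of the pair (N-R2 minus highIM-R1, horizontal) for the 415 separated genes; dotted lines mark 2-fold. KIT, LPCAT2 and CD24 lie at the upper left, with opposite signs in the 2 comparisons, and CD36 and NRP1 lie near 0 on the vertical axis.

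The share of separated genes varied between chromosomes. Chromosome 18 had 15 higher genes of 232 measured (6.47%) and 0 lower, and a median difference of 0.14; they include FECH, the E-box factor TCF4 and the SEC11C signal peptidase subunit. The X chromosome had 30 of 569 higher (5.27%) and 4 lower, chromosome 11 had 30 of 817 (3.67%) and chromosome 7 had 23 of 701 (3.28%). On chromosome 3, 3 were higher and 11 lower, and on chromosome 1, 18 and 19. Over all genes the shares were 1.7% higher and 1.09% lower. With the within-set axis taken out, higher and lower genes numbered 9 and 1 on chromosome 18, 22 and 4 on X, 20 and 7 on chromosome 11, 18 and 5 on chromosome 7, 0 and 18 on chromosome 3, and 8 and 27 on chromosome 1. With N-R2 represented by array 4 only, chromosome 3 had 1 and 24, and without highIM-R1 array 3 it had 0 and 11. Across all alternatives chromosome 18 had 9 to 16 higher genes and 0 to 2 lower, which need not be the same genes. Shifts also ran through neighbours that were not separated: the longest stretch of neighbouring genes with the same sign was 39 genes on chromosome 3, from ACTR8 to MAGI1-AS1, with a median of -0.32. Among windows of 25 neighbouring genes, the lowest median was -0.49, on chromosome 10 from SVIL-AS1 to ZNF37A, where NRP1 lies. The highest was 0.54, on X from SYTL4 to BEX3. With only the highest window of each chromosome kept, the next was 0.51, on chromosome 18 from MIR3975 to IER3IP1. In the chromosome 10 window the median distance from naive cells was 0.19 in N-R2 and 0.82 in highIM-R1. DNA copy number was not measured, and its part in these stretches was not tested.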

How the data were processed

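RNA of K-562 cells was measured on 32 whole-transcript microarrays, 4 for each of 8 sets. The deposited table holds log2 intensities per array feature, made by the authors with Transcriptome Analysis Console 4.0, per the submitters' processing notes; no source used here names the normalization, and the log base was inferred from the value range of 1.24 to 14.2. The number of arrays limits the precision.

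The table was used as deposited. Of 53617 features, 16098 have 1 gene symbol in the platform annotation and 37519 are unnamed here; all 16098 were matched by gene ID to RefSeq on GRCh38.p14. Where a gene had several features (779 genes) the one with the highest mean over all arrays was kept, leaving 14884 genes. Differences are N-R2 minus highIM-R1 set means. The ± values are technical standard errors from limma 3.58.1 in R 4.3.3, fitted to 32 arrays with 1 mean per set (24 residual degrees of freedom), checked on simulated data. The within-set axis is the first principal component of deviations from set means. Other steps ran in Python 3.11.15 with numpy 2.4.6 and pandas 2.3.3.

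Genes were named by rule: the 12 largest separated differences in each direction, the largest separated member of each list, the 2 genes on each side of the threshold, the 3 largest of each naive class, the 3 largest with opposite calls in the other lines, and BCR and KIT. List members named with values that were not separated, and MIR21 and MIR590, were chosen after their values were seen. The pair, the lists and the rules were chosen with earlier results of these data known. Alternatives covered dim genes, normalization, the axis, several features per gene, the fold threshold, the naive margin, array numbers as a block and each array left out. Array numbers, read from titles, did not pair arrays: same-numbered arrays of the lines deviated with correlations of -0.12, -0.02, -0.14 and 0.00.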

Additional observations from a re-analysis of the deposited data

Results flagged for a closer look

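For 14 of the named genes the arrays of N-R2 and highIM-R1 were separated one way and those of N-R1 and highIM-R2 the opposite way; whether the differences themselves differ was not tested. On the log2 scale, with N-R2 minus highIM-R1 followed by N-R1 minus highIM-R2, 9 genes were lower in N-R2 and higher in N-R1. These were CD24 at -1.65 and 4.58, LPCAT2 at -2.18 and 4.36, KIT at -2.49 and 3.86, CCL2 at -2.65 and 3.71, VIM at -1.18 and 2.30, DUSP10 at -1.43 and 1.81, PIM1 at -1.46 and 1.81, STAP1 at -1.57 and 1.5, and INSR at -1.0 and 1.15. Another 5 were higher in N-R2 and lower in N-R1. These were LGR4 at 1.86 and -2.20, EPCAM at 2.74 and -1.90, UCA1 at 2.52 and -1.88, BAIAP2L1 at 2.00 and -1.50, and HSPA4L at 1.85 and -1.47.

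A single array stood apart from the other 3 of its line in 7 of 108 groups of 4 arrays checked (54 genes in each line), where chance alone gives about 1 in 20. In N-R2 these were BCR at 7.48 against a line mean of 7.67, MCM3 at 10.3 against 10.5, NRP1 at 6.35 against 6.18, TF at 6.46 against 6.92, UCA1 at 10.8 against 10.9 and VWA5A at 6.76 against 6.61. In highIM-R1 it was STC1 at 5.55 against 5.79.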

How the results depend on the processing

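The difference of each named gene kept its sign in all 802 recomputed values, of which 746 moved by less than the spread between arrays and 56 by more. Apart from BCR, the named genes differ by about 2-fold or more in these same values, so a kept sign tests little. Of the 54 named genes, 30 moved by more with N-R2 represented by array 4 only and 17 with the within-set axis taken out. Under quantile normalization 7 did, and with features averaged 2 did. Counts depended on the threshold: 1.5-fold gave 1005 higher and 545 lower genes, 3-fold gave 65 and 38, and using every array feature gave 811 and 494 features. With N-R2 represented by array 4 only, the array with its lowest within-set score and an alternative chosen after seeing the data, 185 were higher and 263 lower. Taking the axis out gave 178 and 207, of which 175 and 153 were shared with the calls reported, quantile normalization gave 204 and 175, and leaving out the dimmest 40% of genes gave 206 and 133. Leaving out 1 array at a time gave 212 to 308 higher genes, 158 to 178 lower genes and 3478 to 4273 genes by limma. Array number as a replicate block gave 253 and 163 genes by the rule and 4217 by limma, and changed the call of no named gene. A narrower margin around the naive level placed naive cells near N-R2 for 112 genes, near highIM-R1 for 77, between for 142, beyond N-R2 for 56, beyond highIM-R1 for 28 and near both for 0. The 7 genes near both became 12 with naive S alone, 13 with quantile normalization and 23 with the axis taken out. Genes at the edge lost their call in some settings: MCM3, PUS7L, INSR and CLIC4 on leaving out arrays, MCM7 without N-R2 array 2, MCM7, MCM3 and PUS7L with the axis taken out, DHCR7 under quantile normalization, VIM when its features were averaged and ICAM1 with N-R2 array 4 only. The causes were not tested. With 1 culture per line, the spread between cultures was not measured.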

Other observations

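Genes in which N-R2 stood at least 2-fold above the 7 other sets include, besides those named in the report, the integrin activator FERMT3, the caveolar protein CAVIN2 and the membrane protease ADAM28, all chosen after their values were seen. In the genes whose symbols begin with USP17L, a family of near-identical deubiquitinases, 3 of 4 measured were lower in N-R2, but they hold only 2 different rows of values, so they do not count as separate measurements.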
